A study of Mus musculus with 4 samples.

Results

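The transcripts of 6 genes for IκB proteins were followed in LPS-stimulated splenic B cells: the nuclear IκB genes Nfkbiz, Bcl3 and Nfkbid, and the classical IκB genes Nfkbia, Nfkbib and Nfkbie. The members were taken by symbol from the 30041 genes listed in each file, all 6 were found once, and all 6 passed the filter on low values. Nfkbiz, which encodes IκB-ζ, is the gene deleted in the study, so the comparison asks whether the deletion is visible in its own transcript and whether the transcripts of its relatives moved with it. RNA-seq was done on purified B cells from C57BL/6 mice cultured with LPS, a bacterial cell wall component that signals through TLR4, for 72 h. There were 2 control samples and 2 cKO samples. Control mice were Nfkbiz fl/Δ, with 1 loxP-flanked and 1 already deleted allele, and cKO mice were Nfkbiz fl/Δ Mb1 cre/+. Both groups therefore carried the deleted allele. Cre was driven from the Cd79a (Mb1) locus, which is active in the B lineage, and it was present only in cKO mice, so an effect of Cre and an effect of the lost floxed allele cannot be told apart. Nothing in the sources says whether the 2 samples of a group came from separate mice or cultures. The p-values then measure only the spread between these samples, moderated with that of other genes of similar level.

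IκB proteins bind NF-κB dimers through ankyrin repeats. The classical members IκBα, IκBβ and IκBε hold NF-κB in the cytoplasm until the IKK complex phosphorylates them and they are degraded, after which NF-κB enters the nucleus and induces its own inhibitors again. The nuclear members IκB-ζ, BCL-3 and IκBNS are found with NF-κB in the nucleus, bind mainly the p50 and p52 subunits, and activate or repress selected target genes. In B cells, stimulation of TLR4 induces IκB-ζ.

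Genes of the family are themselves under NF-κB control, and 3 promoters that hold the NF-κB consensus are shown for this reason. The consensus has 10 bases, namely 3 G, a purine, any base, A or T, 2 pyrimidines and 2 C, and it was searched on both strands from 250 bases before to 50 bases after each RefSeq start site (sequences from RefSeq on GRCm38.p6). Of the 6 genes, 5 had a window, and Nfkbiz had none. A match was present in 4 of these 5 genes, against 5.14% of all 27025 genes with a window. The 250 bases upstream of each start site were then found by exact match on NCBIM37, the assembly called mm9. In the sequences below, capitals mark the match. The Nfkbia window lies at chr12:56593635-56593884 (minus strand), with the match from -29 to -20 relative to the start. The Nfkbie window lies at chr17:45692399-45692648 (plus strand), with the match from -106 to -97. The window of the second of 3 Nfkbid start sites lies at chr7:31207175-31207424 (plus strand), within the annotated span of the gene. Its matches lie from -226 to -217 and from -181 to -172. In Bcl3 the match lies just after the start site, and Nfkbib had none. A match describes letters in a window and not a bound site.
Nfkbia: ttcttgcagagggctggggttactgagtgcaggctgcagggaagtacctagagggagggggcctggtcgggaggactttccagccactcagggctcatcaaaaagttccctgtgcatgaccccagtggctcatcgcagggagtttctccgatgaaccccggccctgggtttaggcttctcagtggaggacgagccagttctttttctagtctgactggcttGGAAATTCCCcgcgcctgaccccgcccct
Nfkbie: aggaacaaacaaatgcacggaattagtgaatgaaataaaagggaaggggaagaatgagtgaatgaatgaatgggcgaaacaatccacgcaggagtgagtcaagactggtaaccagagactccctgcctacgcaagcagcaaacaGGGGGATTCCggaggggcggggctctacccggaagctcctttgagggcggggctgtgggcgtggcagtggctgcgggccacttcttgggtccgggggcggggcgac
Nfkbid, second start site: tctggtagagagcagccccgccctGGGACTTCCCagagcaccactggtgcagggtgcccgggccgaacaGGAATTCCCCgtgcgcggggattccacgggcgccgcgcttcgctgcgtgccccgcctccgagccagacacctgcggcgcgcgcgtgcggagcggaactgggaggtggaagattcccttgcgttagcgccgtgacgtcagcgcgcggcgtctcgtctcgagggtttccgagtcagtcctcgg

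The authors deposited an RNA-seq score for each gene, which has no stated unit. The low scores behave as reads per exon base scaled to the library, so scores of different genes are compared here as levels per length, which is an inference from the values. On that reading the 6 genes rested on about 796 to 4924 reads each per sample. Scores summed to 604.2 to 637.6 per sample. Of 10 B cell markers, 10 passed the filter and 2 were called lower in cKO samples, against 1.25% of all 9727 genes tested, and their summed score was 3.23 and 3.56 in the controls against 2.97 and 3.02 in cKO samples. Among the markers of other cells, Cd3e, which encodes a chain of the T cell receptor complex, had scores of at most 0.0002 and Cd4 of at most 0.00006. The summed T cell list was 0.0336 and 0.0464 in the controls against 0.0742 and 0.0694 in cKO samples. Most of it came from Lck (0.0318 and 0.0437 against 0.0690 and 0.0636). Of 8 T cell genes only Lck was tested, and it was not called (log2 fold change 0.83, limma adjusted p = 0.0734). Both its cKO scores lay above both control scores, as in 28.1% of all genes tested. Among the untested T cell genes, Cd3e, Cd3d, Cd3g and Cd5 also lay above. Cd4 and Cd8a overlapped, and Cd28 lay below. The summed myeloid list was 0.221 and 0.1998 against 0.231 and 0.246, most of it from Itgam (0.141 and 0.150 against 0.135 and 0.158). Of 10 myeloid genes, 4 were tested and none was called, with 3 positive and 1 negative log2 fold changes. Both cKO scores lay above both control scores in 2 of them, Lyz2 and Cd68, against 28.1% of all genes tested. Below the filter, Csf1r, Cd14 and Emr1 also lay above, while Itgax and S100a8 overlapped. Of 5 plasma cell genes, all tested, 3 had positive and 2 negative log2 fold changes. Prdm1 was called lower (-2.82, limma adjusted p = 0.0429), and Sdc1, with both cKO scores above both control scores, had a log2 fold change of 0.77 (limma adjusted p = 0.116). Of 6 erythroid genes, 2 were tested and none was called. Cd79a, whose locus carries the Cre, was among the B cell markers called lower (log2 fold change -0.78, limma adjusted p = 0.0294). Its scores were 0.667 and 0.743 in the controls against 0.415 and 0.407 in cKO samples. Most of the fall in the B cell sum came from this gene, and a sum without it was not tested. Of the 10 B cell markers, 7 had negative and 3 positive log2 fold changes. Whether these differences had a part in the values below was not tested. In bulk RNA, fewer cells of a type and less RNA per cell cannot be told apart.

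Nfkbiz fell in cKO B cells to 0.521 times its control level. Its locus is chr16:55811488-55839012 of NCBIM37, minus strand, and its Entrez number is 80859. Its score was 0.0241 in control 1, 0.0226 in control 2, 0.0127 in cKO 1 and 0.0116 in cKO 2. Both cKO samples lay below both control samples, and the gap between the groups was far wider than that within either of them. The 95% interval of this ratio was 0.442 to 0.613, a log2 fold change of -0.94 ± 0.096 (SE), with a limma adjusted p of 0.0282 over 9727 genes. Nfkbiz was thus the only one of the 6 genes past the threshold of 0.05, in a comparison in which 1.25% of all genes were called lower and 0.812% higher in cKO B cells. Among all 30041 genes it moved from rank 3687 and 3903 by score in the control samples to 6149 and 6487 in the cKO samples. Without cKO 1 the log2 fold change was -1.01 and the adjusted p 0.130, and without cKO 2 they were -0.87 and 0.0885, settings in which no gene of the whole table passed the threshold (947 and 1749 genes at an unadjusted p under 0.05).

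The score of Nfkbiz joins all of its exons, about 5018 exon bases in 6 annotated transcripts, so it does not show which part of the transcript remained. The inferred reads on the gene were 2157 and 2083 in control and 1269 and 1017 in cKO samples.

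The other nuclear members did not share this pattern. Nfkbid, which encodes IκBNS, stood higher in cKO samples. Its locus is chr7:31206751-31213765, plus strand (Entrez 243910). Its score was 0.0190 in control 1, 0.0219 in control 2, 0.0310 in cKO 1 and 0.0295 in cKO 2. Both cKO samples were above both control samples, and the control samples differed from each other more than the cKO samples did. The ratio was 1.48-fold (95% interval 1.24 to 1.76), a log2 fold change of 0.56 ± 0.102 (SE), but the limma adjusted p of 0.0621 missed the threshold. Without control 2, which had the higher of the control scores, the log2 fold change was 0.67. Over the other alternatives it kept between 0.46 and 0.60. In all, 350 of the 9727 genes had a log2 fold change at least as high.

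**Figure D1:**
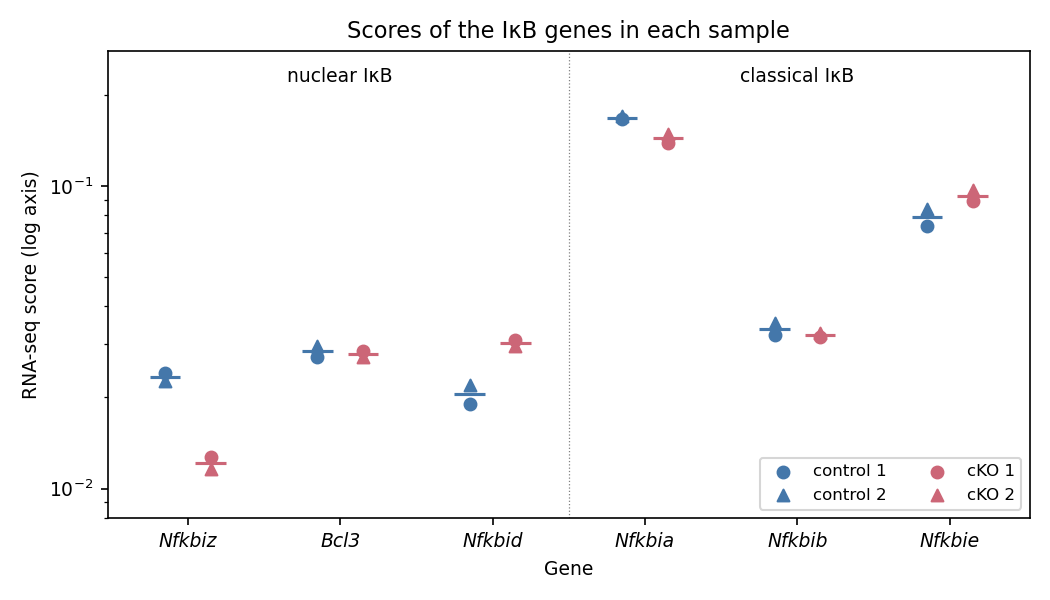
RNA-seq score (log axis) of the 6 IκB genes in each sample, with control samples in blue, cKO samples in red, circles for replicate 1, triangles for replicate 2 and a line at each group mean. Nfkbiz falls from 0.0241 and 0.0226 to 0.0127 and 0.0116, Nfkbid stands above both control scores in both cKO samples, and the scores of Bcl3 and Nfkbib overlap between groups.

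Bcl3, a nuclear member first known from a translocation in B cell leukemia, showed no detectable difference. Its locus is chr7:20393811-20408119, minus strand (Entrez 12051). Its score was 0.0273 and 0.0296 in the controls against 0.0285 and 0.0271 in cKO samples. The groups overlapped, and the log2 fold change of -0.03 ± 0.089 (SE, limma adjusted p = 0.851) had a 95% interval of -0.25 to 0.19. A rise of Bcl3 above 1.14-fold or a fall below 0.84-fold lies outside this interval. The sign of this value turned to 0.028 without control 2 and to 0.003 without cKO 2. Gm16175, on the opposite strand, shares 161 exon bases with Bcl3, and the library kit does not mark strand, so reads of the 2 genes cannot be told apart there.

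Summed over the 3 nuclear genes, the score differed little between the groups. The sum was 0.0704 and 0.0742 in control samples (0.0723 ± 0.0027, SD, n = 2) and 0.0721 and 0.0682 in cKO samples (0.0702 ± 0.0028, SD, n = 2). The difference of the means, -0.0021, was smaller than the SD of either group. Its parts were not equal. The mean score of Nfkbiz was lower by 0.0112 in cKO samples (-0.0112), that of Nfkbid was higher by 0.0098, and that of Bcl3 differed by -0.00064. The share of Nfkbiz in the sum was 34.2 and 30.5% in control and 17.6 and 17.0% in cKO samples, and the share of Nfkbid was 27.0 and 29.6% against 42.9 and 43.3%. Bcl3 held between 38.7 and 39.9% in every sample. The ratio of Nfkbid to Nfkbiz within a sample was 0.789 and 0.969 in control and 2.44 and 2.55 in cKO samples. These sums weigh the genes by score per exon base and say nothing of protein or of what each protein does, and no test was run on them.

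**Figure D2:**
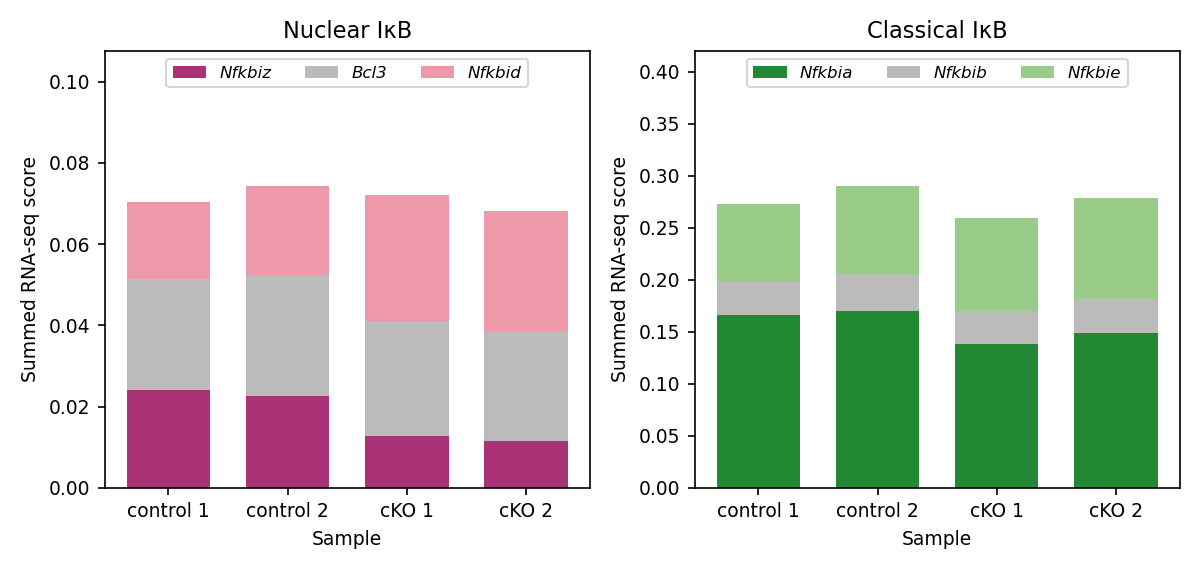
Summed RNA-seq score (vertical axis, linear from 0) of the nuclear and of the classical IκB genes in each of the 4 samples, stacked by gene. The nuclear sum runs from 0.0682 to 0.0742 in all samples while the part of Nfkbiz is smaller and that of Nfkbid larger in cKO samples, and in the classical sum the part of Nfkbie is larger against that of Nfkbia.

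The classical genes together were far more abundant than the nuclear ones, with a summed score of 0.273 and 0.290 in control and 0.259 and 0.278 in cKO samples. Nuclear genes made up 20.5 and 20.4% of the sum of all 6 in control and 21.8 and 19.7% in cKO samples. No classical gene passed the threshold.

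Nfkbia encodes IκBα, the inhibitor that is degraded and resynthesized fastest. Its locus is chr12:56590398-56593634, minus strand (Entrez 18035), and it had the highest score of the family in every sample. The score was 0.166 and 0.170 in the controls against 0.138 and 0.149 in cKO samples. Both cKO samples lay below both control samples. The ratio was 0.852-fold (95% interval 0.742 to 0.978), a log2 fold change of -0.23 ± 0.081 (SE, limma adjusted p = 0.188).

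Nfkbie, which encodes IκBε, had higher scores in cKO samples. Its locus is chr17:45692665-45700118, plus strand (Entrez 18037). The score was 0.0739 and 0.0842 in the controls against 0.0889 and 0.0968 in cKO samples. The groups did not overlap, but the gap between them was smaller than the gap within either group. The ratio was 1.17-fold (95% interval 0.990 to 1.39), a log2 fold change of 0.23 ± 0.100 (SE, limma adjusted p = 0.244). The ratio of Nfkbie to Nfkbia within a sample was 0.444 and 0.495 in control and 0.643 and 0.651 in cKO samples, a description with no test.

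Nfkbib encodes IκBβ, which is less responsive to NF-κB than IκBα. Its locus is chr7:29543270-29552531, minus strand (Entrez 18036). The score was 0.0322 and 0.0352 in the controls against 0.0318 and 0.0326 in cKO samples. The groups overlapped, with a log2 fold change of -0.07 ± 0.088 (SE, limma adjusted p = 0.684) and a 95% interval of -0.28 to 0.15. Sirt2, on the opposite strand, shares 42 exon bases with it.

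**Figure D3:**
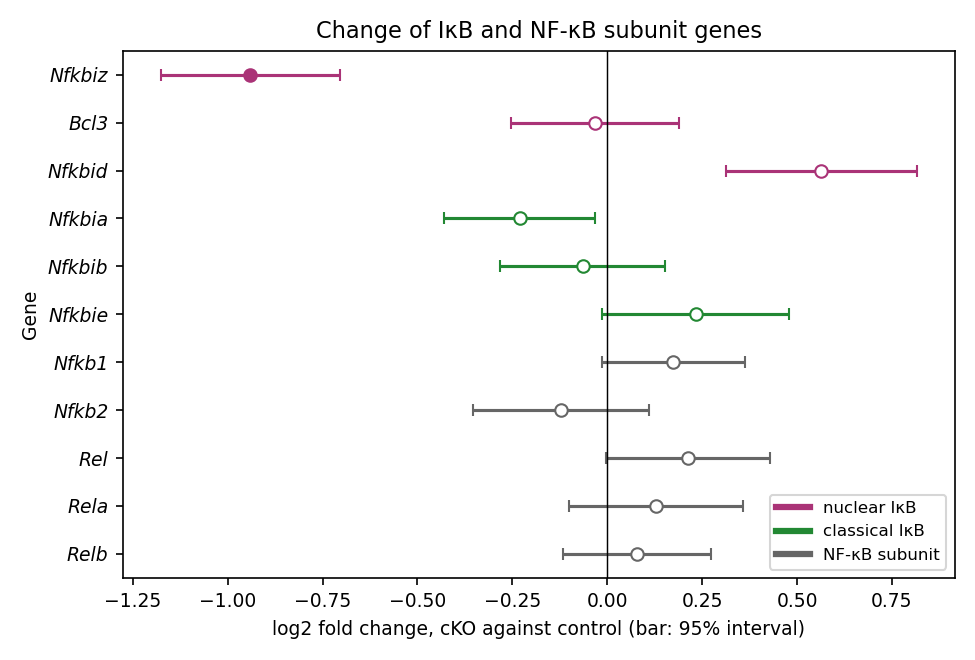
Log2 fold change of cKO against control (horizontal axis) for the 6 IκB genes and the 5 NF-κB subunit genes, with bars for the 95% interval of limma and a filled point where the adjusted p is under 0.05. Nfkbiz at -0.94 is the filled point, the interval of Nfkbid (0.31 to 0.82) and that of Nfkbia (-0.43 to -0.03) do not reach 0, and all other intervals cross 0.

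By level, the order in control samples was Nfkbia, Nfkbie, Nfkbib, Bcl3, Nfkbiz and Nfkbid. In cKO samples it was Nfkbia, Nfkbie, Nfkbib, Nfkbid, Bcl3 and Nfkbiz. Nfkbid passed from the lowest place to the fourth and Nfkbiz from the fifth to the last. The 2 scores of neighbouring genes did not overlap in either group, but Nfkbib, Nfkbid and Bcl3 in cKO samples all lay between 0.0271 and 0.0326, and the order of neighbours was not tested. Of the 6 genes, 2 had both cKO scores below both control scores and 2 had both above, in a table in which 30.1% of genes were below and 28.1% above by this rule, so these counts are near the background.

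None of the 5 NF-κB subunit genes passed the threshold, and their log2 fold changes ran from -0.12 to 0.21 with a median of 0.13, against -0.01 for all genes tested. Nfkb1 encodes the precursor of p50, the main partner of IκB-ζ. Its score was 0.126 and 0.131 in control and 0.143 and 0.146 in cKO samples (log2 fold change 0.17, limma adjusted p = 0.254). Both cKO scores of Nfkb1, of Rel, which encodes c-Rel, of Rela, which encodes p65, and of Relb were above both control scores. This was so for 4 of the 5 genes, in a table in which 28.1% of genes lay above by this rule. The log2 fold change was 0.21 for Rel (limma adjusted p = 0.230), 0.13 for Rela (limma adjusted p = 0.446) and 0.08 for Relb (limma adjusted p = 0.583). Nfkb2, which encodes the p52 precursor p100, had scores of 0.0662 and 0.0743 in control and 0.0627 and 0.0662 in cKO samples (log2 fold change -0.12, limma adjusted p = 0.471).

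Of 15 genes for the IKK complex, its activators and the ubiquitin ligase that marks IκBα, 14 passed the filter and none was called, with log2 fold changes from -0.23 to 0.40 and a median of 0.06. The most abundant were Skp1a (-0.03) and Rbx1 (-0.14), both subunits of that ligase. The sign of Skp1a turned to 0.018 with quantile normalization.

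Of 7 genes for proteins that act on Nfkbiz or other inflammatory transcripts, 7 were tested and none was called, with a median log2 fold change of 0.30. The log2 fold changes were positive for 5 and negative for 2. Both cKO scores lay above both control scores in 4 and below in 2, against 28.1% and 30.1% of all genes tested. The most abundant were Zfp36l1 and Zfp36, both of which encode proteins that bind AU-rich elements and destabilize mRNA. Zfp36l1 had scores of 0.190 and 0.221 in control and 0.272 and 0.254 in cKO samples (log2 fold change 0.36, limma adjusted p = 0.132). Zfp36 had a log2 fold change of 0.15 (limma adjusted p = 0.578). The rest were named after their values were seen. Rc3h1, Rc3h2 and Zfp36l2 had log2 fold changes of 0.30, 0.36 and 0.375 (limma adjusted p from 0.181 to 0.211). The 2 negative values were those of Arid5a and Zc3h12a. Arid5a, whose product stabilizes inflammatory mRNAs, had scores of 0.0210 and 0.0192 in control and 0.0148 and 0.0136 in cKO samples (log2 fold change -0.50, limma adjusted p = 0.0745). Zc3h12a, which encodes Regnase-1, a nuclease that degrades Nfkbiz mRNA, had a log2 fold change of -0.18 (limma adjusted p = 0.286).

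Of 25 NF-κB target genes, 3 were called higher and none lower in cKO B cells, against 0.812% higher and 1.25% lower of all genes tested, with a median log2 fold change of 0.01. Those called were the chemokine genes Ccl5 (log2 fold change 1.98, limma adjusted p = 0.0215) and Ccl3 (1.41, limma adjusted p = 0.0267) and the costimulatory gene Cd80 (1.17, limma adjusted p = 0.0345). Ccl5 had scores of 0.0052 and 0.0036 in control and 0.0174 and 0.0171 in cKO samples. All 3 calls were lost without cKO 1 (adjusted p from 0.130 to 0.174) and without cKO 2 (from 0.0538 to 0.0783). The most abundant targets, Bcl2a1b, a BCL2 family gene with near-identical copies whose reads may not be separable, and Cd83, an activation marker, had log2 fold changes of -0.48 (limma adjusted p = 0.143) and -0.28 (limma adjusted p = 0.128). Lyz2, a myeloid marker, had a log2 fold change of 1.39 (limma adjusted p = 0.0961), and its part in the chemokine values was not tested.

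**Figure D4:**
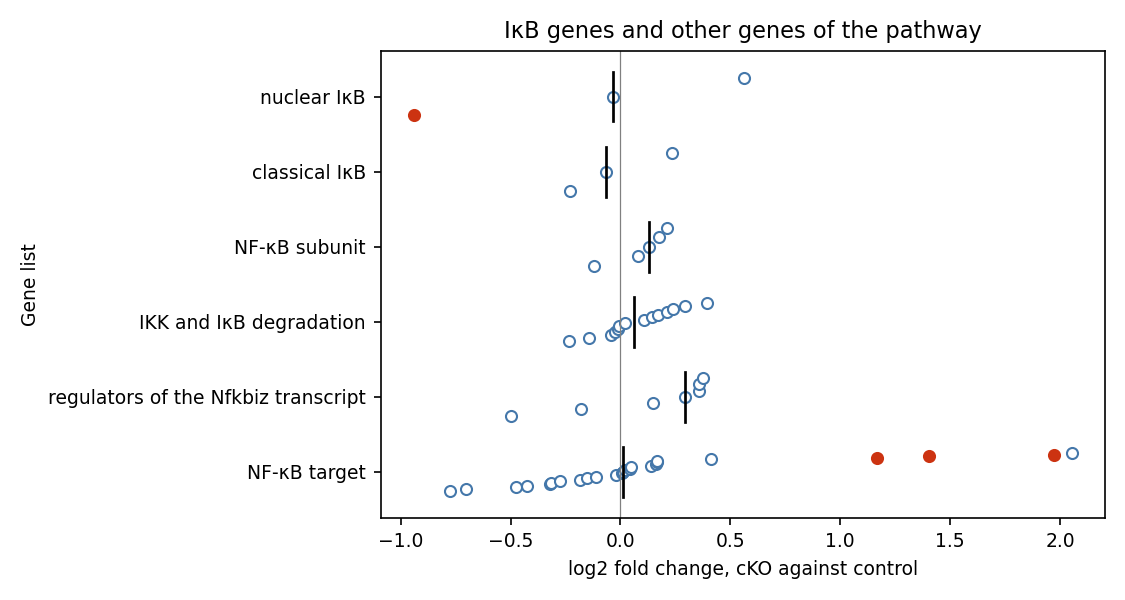
Log2 fold change of cKO against control (horizontal axis) for each tested gene of 6 lists, with filled red points for a limma adjusted p under 0.05 and a vertical line at each list's median. Nfkbiz at -0.94 and the NF-κB target genes Ccl5, Ccl3 and Cd80 are the filled points. Ccl4, the target gene with the highest value (2.05), is an open point (limma adjusted p = 0.0991). The NF-κB subunit and IKK lists lie within -0.23 and 0.40.

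Genes reported to depend on IκB-ζ in macrophages and other cells had mostly low scores here. Of 10 such genes, 1 passed the filter and 2 were listed at 0 in all 4 samples. The one tested was Il10, which encodes the anti-inflammatory cytokine IL-10. Il10 had scores of 0.0062 and 0.0036 in control and 0.0021 and 0.0018 in cKO samples (log2 fold change -1.24, limma adjusted p = 0.132). Lcn2, which encodes lipocalin-2, had scores of 0.00113 and 0.00027 in control and 0.00300 and 0.00103 in cKO samples, which overlapped. Il6, named after its values were seen, had scores of 0.00203 and 0.00039 in control samples, 0.00010 in cKO 1 and 0 in cKO 2, below the filter.

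Over all genes tested, the pattern across the 4 samples nearest to that of Nfkbiz was that of Cd93, by the root mean square difference of log2 scores centred on each gene's mean (0.03). Cd93, a surface receptor gene, had scores of 0.0088 and 0.0080 in control and 0.0044 and 0.0040 in cKO samples. It was followed by Batf, which encodes an AP-1 factor, at 0.06, Adap1 at 0.06, Gimap3, which encodes a GTPase of lymphocytes, at 0.07 and Fam177a at 0.07. The log2 fold changes of these 5 genes ran from -0.995 (Cd93) to -0.83 (Fam177a). The likeness rests on 4 samples in 2 groups, so it mainly describes genes that were lower in cKO samples to a similar extent.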

How the data were processed

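RNA-seq of poly(A) RNA from 2 control and 2 cKO samples was used. Per the labels and the study's methods, reads were aligned to mm9 by TopHat, filtered on base quality and cleared of rRNA and tRNA with BEDTools. The authors deposited 1 score for every gene in each sample, with 5 decimals. The step from reads to score is not given in the sources used here. Scores were joined on Entrez number. The value of 1 read was inferred from the spacing of low scores times exon length. This was done among 3892 genes with a single GENCODE transcript of 600 to 1600 bases, with 418 to 447 low scores used per sample. Of these products, 75.4 to 82.1% lay within 0.2 steps of a whole number. The step was fitted to the same products, so this share is no independent check, and part of it would arise with any step.

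The groups were compared by limma 3.58.1 under R 4.3.3, with moderated variances that follow the mean level, after adding 0.0001 to each score and taking log2. Genes entered the fit if any sample reached 0.005, which left 9727, and p-values were adjusted by Benjamini-Hochberg with a threshold of 0.05. Fold changes are on this log2 scale, which understates those of low genes. The fits were checked on simulated data. No exact permutation test was used, since 2 samples a group allow no two-sided p under 0.33.

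The members and gene lists were chosen with earlier results of these data known. Genes named are the 6 members, the 5 NF-κB subunit genes, from each other list the genes called (at most 4) and the 2 with the highest score, and the 5 genes nearest to Nfkbiz in pattern. Exceptions are marked in the text. Of the marker lists only some genes are named, and others also moved with the groups. Alternatives were the pseudocount of 0.001, no filter, a score above 0.05, no variance trend, the replicate number as a block, scaling to equal medians, quantile normalization and leaving out each sample.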

Additional observations from a re-analysis of the deposited data

How the results depend on the processing

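The log2 fold changes of Nfkbiz, Nfkbid, Nfkbia, Nfkbib and Nfkbie kept their direction under every alternative run. A score above 0.05 left out Nfkbiz, Nfkbid, Bcl3 and Nfkbib, which do not reach it. Nfkbiz (-0.94) lost its call with no filter (adjusted p = 0.204) and without the variance trend (0.0509), and leaving out a sample gave from -1.01 to -0.87. Nfkbid ranged from 0.46 to 0.67 on leaving out a sample, and Bcl3 from -0.092 to 0.028, with the sign turned without control 2 and without cKO 2 (0.003). A group left with 1 sample is assumed in such fits to vary like the other. The change in the nuclear share of the sum of the 6 genes, 0.29 percentage points, ranged from -0.76 to 1.34 on leaving out a sample, with the sign turned without cKO 1.

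Over all genes, limma called 122 lower and 79 higher. Dropping the filter left 0 in either direction (3203 genes had an unadjusted p under 0.05), without the trend 22 and 11, with the score above 0.05 35 were higher, and on leaving out a sample from 0 to 391 were lower and from 0 to 439 higher. Of the NF-κB targets, 3 were called, against 0 with no filter and with the score above 0.05 (which also drops the 3 genes), 1 without the trend and from 0 to 5 on leaving out a sample. The IKK and transcript regulator lists had from 0 to 2 calls and the IκB-ζ targets from 0 to 1 on leaving out a sample. With the replicate block 177 genes were higher, and Nfkbiz (-0.94) had an adjusted p of 0.00466 and Nfkbid (0.56) of 0.0540. The samples share only a number, with a correlation of -0.145 between deviations of same-numbered samples. With the crossed pairing, added after the data were seen, 230 genes lay lower and 212 higher, Nfkbid (0.56) among them, and 6 NF-κB targets were called.

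Among 20 other named genes, 3 of 230 values turned sign, 32 lost a call, 2 gained one and 193 did neither. The turned values were those of Skp1a with quantile normalization (0.018) and without cKO 1 (0.046) and of Zfp36 without cKO 1 (-0.04). On leaving out a sample Skp1a ranged from -0.099 to 0.046 and Zfp36 from -0.04 to 0.334. The cause was not tested. Depth is inferred and limits the low scores most, such as those of Il6.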
